A study of Homo sapiens with 40 samples.

Results

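The comparison described here sets human microglia-like cells in which an INPP5D polymorphism was converted by genome editing against unedited cells of the same embryonic stem cell line. It rests on 2 edited libraries (INPP5D-SNP) and 7 unedited ones (WT) of the 40 libraries in the study. The members are genes for which both edited libraries lay outside the whole range of the 7 WT libraries, among genes with a mean of at least 5 TPM in either group (TPM is transcript abundance corrected for gene length, with an equal total in every library). Of 10602 genes at that level, 2215 met this rule.

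INPP5D encodes SHIP1, a phosphatase of blood-derived cells and microglia that removes a phosphate from the membrane lipid made by PI3-kinases. SHIP1 is recruited by inhibitory receptors and adaptor proteins, and it limits signalling through kinases such as AKT and through receptors that use the adaptor TYROBP, among them TREM2. In the brain it is largely a microglial gene, and variants at its locus are associated with the risk of Alzheimer disease.

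Microglia-like cells were grown in the study from the embryonic line H9 (WA09), an established human line, and from clones of it changed by Cas9 with a single-stranded repair template. The other edited lines were TREM2-KO (8 libraries), TREM2-R47H (7), SORL1-KO (7), SORL1-A528T (7) and CD33-SNP (2), all described in the labels as homozygous changes. H9 itself carries both alleles, G and A, of the INPP5D polymorphism, so WT cells are heterozygous there and INPP5D-SNP cells are homozygous for A. Homozygous-G cells do not enter the comparison. In all groups, blood progenitors were harvested at day 11 and matured over 28 days in IL-34, TGF-beta1 and M-CSF, with CD200 and CX3CL1 added for the last 3 days. The labels do not say how many clones or differentiations stand behind the libraries of a group, so the spread between libraries may be technical. Each line may also be a single clone, and an effect of the intended edit and any other property of that clone cannot be told apart.

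INPP5D itself was measured at 131 and 132 TPM in the INPP5D-SNP libraries. The 7 WT libraries had a lowest value of 113, a median of 121 and a highest of 132 TPM, so both edited libraries lay within the WT range, at its top. The difference was 0.10 on the log2(TPM + 1) scale (standard error 0.13, limma, adjusted p = 0.7923). An exact two-sided permutation test over the 9 libraries gave p = 0.1667. With 2 libraries against 7 the smallest p that test can give is 0.0556, so it could not have passed 0.05. Of 9 measured genes at 5 TPM in the listed neighbourhood of INPP5D on chromosome 2 (INPP5D at 233059967 to 233207903, plus strand, GRCh38), DIS3L2 and HJURP lay below the WT range and none above. Over all genes at 5 TPM the shares were 14.8% below and 6.12% above. Without library 4 of WT, 3 of the 9 lay below, beside 20.2% of all genes.

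The label of the cells was checked against marker genes. The summed level of 11 myeloid and microglial markers was 7447 and 7841 TPM in the edited libraries against 6275 to 7271 TPM in WT. TMEM119, a microglial surface marker, was low in both groups, at 4.73 and 3.15 TPM against 1.34 to 8.74 TPM. Marker genes of other cells were also present and varied between libraries: 13 endothelial and stromal markers summed to 837 and 2206 TPM in the edited libraries and to a lowest of 189, a median of 742 and a highest of 3240 TPM in WT. The 10 monocyte markers summed to 799 and 3394 TPM in the edited libraries against 367 to 3879 TPM in WT, with a WT median of 563 TPM. HBA1, HBG1, ELANE and MPO, which mark red cells and granulocytes, were listed at 0 in every library of both groups. Other members of the same lists were expressed. The 7 neutrophil and mast cell markers summed to 40.3 to 73.9 TPM in the edited libraries. In WT they summed to 23.6 to 61.5 TPM, with a median of 30.4 TPM. In bulk RNA, fewer cells of a type and less RNA per cell cannot be told apart.

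Against WT, 5 of 14855 genes passed an adjusted p of 0.05 in a limma fit over all 40 libraries (0.0337%): 1 was higher, TFE3, and 4 were lower, among them TXNRD2, LLPH and HSPA1A. In the same fit 1087 genes had an unadjusted p below 0.05, and the median change over all genes was -0.01 on the log2 scale. Both edited libraries were outside the WT range for all 5 genes. In a fit of the 9 libraries alone, the 5 genes were also called, in the same directions. Without WT library 4, 23 genes were called.

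**Figure D1:**
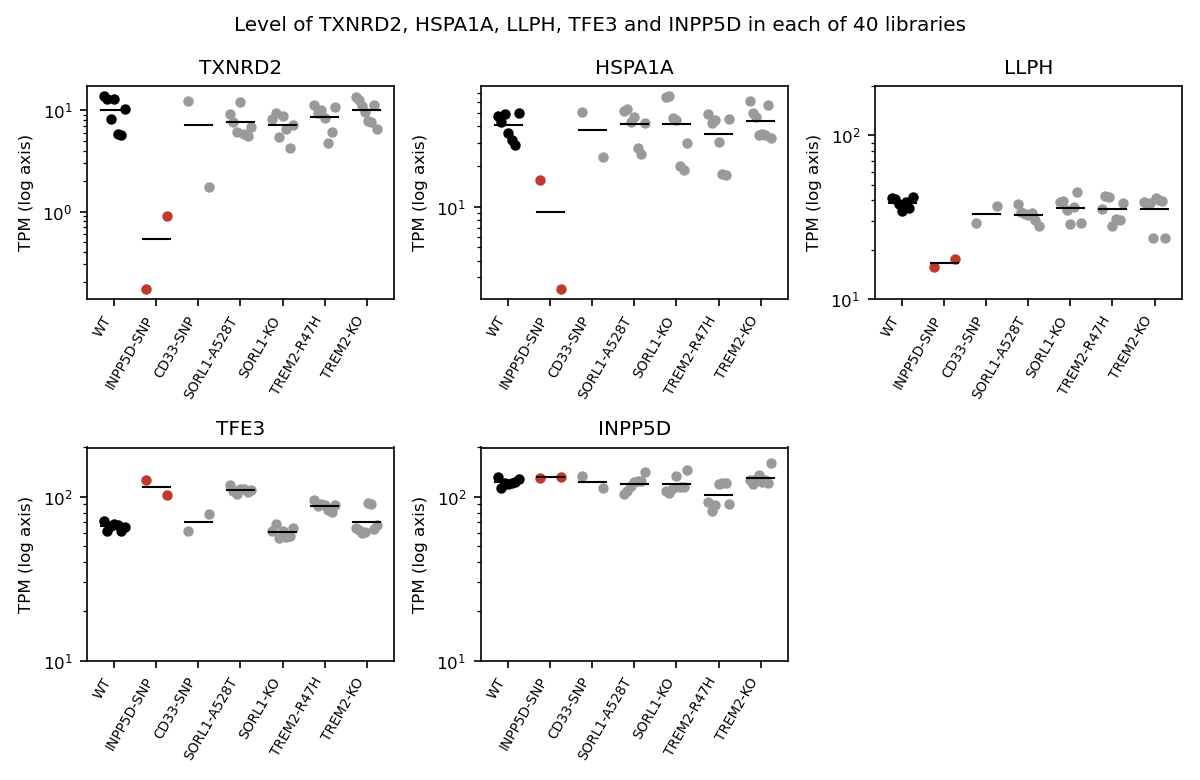
TPM of TXNRD2, HSPA1A, LLPH and TFE3, which were called against WT, for every library of the study, by group. INPP5D is plotted in the last panel. Points are libraries, black for WT and red for INPP5D-SNP, lines are group means, and the TPM axes are logarithmic. For TXNRD2, HSPA1A and LLPH the 2 INPP5D-SNP points lie below all 38 other libraries, whereas for TFE3 the SORL1-A528T libraries overlap them.

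TXNRD2 (chromosome 22, 19875517 to 19941992, minus strand, GRCh38) encodes the mitochondrial thioredoxin reductase. It was measured at 0.17 and 0.90 TPM in the edited libraries. WT libraries ranged from 5.71 through a median of 10.2 to 14.0 TPM. No library of any other line was as low, although CD33-SNP library 2 came close at 1.74 TPM, against 12.4 TPM in CD33-SNP library 1. Libraries 5 and 6 were also on the low side in WT, at 5.81 and 5.71 TPM. In TREM2-R47H they had 4.74 and 6.08 TPM, and in SORL1-KO 6.52 and 4.28 TPM. Low values were not confined to these numbers, since SORL1-KO library 3 had 5.42 TPM. Whether sets of libraries shared an effect on TXNRD2 was not tested. The log2 difference from WT was -2.81 (standard error 0.37, limma, adjusted p = 5.379e-05). Without INPP5D-SNP library 1 it was -2.46, with an adjusted p of 0.0570. The sources used here do not give the strand setting of the authors' counting, so reads of TXNRD2 and of any transcript on the opposite strand cannot be told apart.

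HSPA1A encodes a stress-inducible HSP70 chaperone (chromosome 6, 31815464 to 31817946, plus strand). Its level was 16.0 and 2.44 TPM in the edited libraries. WT libraries ranged from 28.8 through a median of 42.4 to 49.6 TPM, so the groups did not overlap, and library 2 was the lower of the edited pair by a wide margin. HSPA1A varied within other lines too. It had 17.7 and 17.3 TPM in libraries 5 and 6 of TREM2-R47H, and 20.3 and 18.7 TPM in those of SORL1-KO. CD33-SNP library 2 had 23.55 TPM against 50.6 TPM in library 1, and WT libraries 5 and 6 had 31.2 and 28.8 TPM. A set effect shared between lines was not tested. The log2 difference of INPP5D-SNP from WT was -2.42 (standard error 0.45, limma, adjusted p = 0.01599). It rested on library 2: without INPP5D-SNP library 2 the difference was -1.27 and the adjusted p 0.823.

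The near-identical paralog HSPA1B had 30.0 and 26.5 TPM in the edited libraries against 35.1 to 47.1 TPM in WT (log2 difference -0.45, limma, adjusted p = 0.6671). HSPA1B was as low in CD33-SNP, at 27.1 and 26.2 TPM. SORL1-A528T, SORL1-KO and TREM2-R47H averaged 32.4, 31.95 and 31.9 TPM, below the lowest WT library, and TREM2-KO averaged 37.7 TPM. Low HSPA1B was therefore not particular to INPP5D-SNP. Reads shared by the 2 genes could be split between them in ways the deposited values do not show. Their sum was 46.0 and 28.9 TPM in the edited libraries and 66.3 to 96.7 TPM in WT, without overlap. The start windows of both genes are shown because each holds 1 match to GAANNTTC, the core of the heat shock element, in capitals, at chr6:31815293-31815592 and chr6:31827488-31827787, both plus strand (RefSeq, GRCh38.p14).
HSPA1A: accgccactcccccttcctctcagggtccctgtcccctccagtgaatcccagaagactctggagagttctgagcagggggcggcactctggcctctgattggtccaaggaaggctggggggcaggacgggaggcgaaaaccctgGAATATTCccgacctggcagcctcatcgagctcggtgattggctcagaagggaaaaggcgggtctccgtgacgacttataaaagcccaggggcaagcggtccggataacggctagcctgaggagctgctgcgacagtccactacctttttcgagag
HSPA1B: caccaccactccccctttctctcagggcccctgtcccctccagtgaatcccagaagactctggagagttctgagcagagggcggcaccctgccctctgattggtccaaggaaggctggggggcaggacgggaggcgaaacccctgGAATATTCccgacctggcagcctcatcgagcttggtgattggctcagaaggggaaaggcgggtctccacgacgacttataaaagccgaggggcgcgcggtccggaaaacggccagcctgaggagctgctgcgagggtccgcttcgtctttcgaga

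LLPH (chromosome 12, 66116555 to 66130768, minus strand) encodes a nucleolar protein of large ribosomal subunit assembly. It was measured at 15.8 and 17.5 TPM in the edited libraries. WT libraries ranged from 34.7 through a median of 39.2 to 41.9 TPM, and the lowest of the 38 other libraries had 23.7 TPM. Values below the WT range occurred in other lines too. Library 4 had 23.8 TPM in TREM2-KO, 28.1 TPM in TREM2-R47H, 28.7 TPM in SORL1-KO and 32.7 TPM in SORL1-A528T. CD33-SNP library 1 had 29.1 TPM, and a shared set effect was not tested. The edited libraries were below all 38 others, with a log2 difference from WT of -1.17 (standard error 0.18, limma, adjusted p = 0.0003566). Without INPP5D-SNP library 1 the difference was -1.10 and the adjusted p 0.0900.

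TFE3 (X chromosome, 49028726 to 49043486, minus strand) encodes a transcription factor that, with TFEB and MITF, drives lysosomal and autophagy genes. The edited libraries had 127 and 103 TPM. WT libraries ranged from 61.5 through a median of 66.1 to 70.8 TPM, well below both. The log2 difference was 0.79 (standard error 0.12, limma, adjusted p = 0.0002894). Other lines also had high levels: SORL1-A528T averaged 110 ± 4.41 TPM (SD, n = 7) and TREM2-R47H 88.1 ± 4.74 TPM (SD, n = 7), against 61.0 TPM in SORL1-KO. Without INPP5D-SNP library 1 the difference was 0.64 and the adjusted p 0.1752.

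Some genes near TFE3 on the X chromosome had high values too. Of 12 neighbours at 5 TPM within 200 kb, 5 lay above the WT range and 1 below, beside 6.12% and 14.8% of all genes, and none was called in the fit of all libraries. In the fit of the 9 libraries alone, where 0.979% of genes were called higher, 4 of them were: GRIPAP1 (limma, adjusted p = 0.01695), OTUD5 (0.02339), SLC35A2 (0.034) and PIM2 (0.04308). GRIPAP1, an endosomal adaptor, had 49.2 and 59.2 TPM against 30.2 to 35.9 TPM in WT (log2 difference 0.66, limma, adjusted p = 0.0614). OTUD5, a deubiquitinase, had 43.0 and 67.0 TPM against 28.9 to 35.5 TPM, and SLC35A2, the Golgi transporter of UDP-galactose, 30.0 and 34.8 TPM against 16.8 to 24.5 TPM. These neighbours were also high in other lines. In SORL1-A528T and TREM2-R47H, SLC35A2 averaged 35.8 and 34.9 TPM against 32.4 TPM in INPP5D-SNP, and OTUD5 48.08 and 46.99 TPM against 55.0 TPM. PIM2, a kinase, averaged 17.1 and 12.8 TPM in those lines and 16.1 TPM in INPP5D-SNP, and at most 8.63 TPM was measured in a WT library. Of 337 X-linked genes at 5 TPM, 37 lay above the WT range (11.0%) and 36 below (10.7%).

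**Figure D2:**
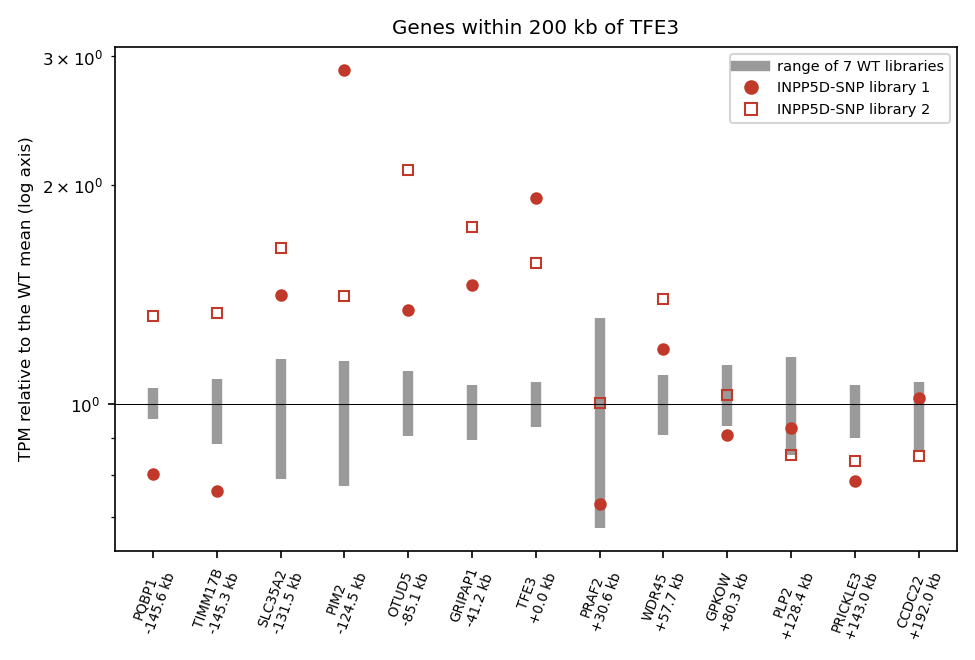
TPM relative to the WT mean (logarithmic axis) for genes at 5 TPM within 200 kb of TFE3, in order of position, with the distance in kb from TFE3. Grey bars span the 7 WT libraries and red symbols are the 2 INPP5D-SNP libraries. TFE3 and 5 of its neighbours have both symbols above the bar.

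The same fit gave comparisons with the other edited lines, which share the INPP5D-SNP libraries with the WT comparison. Against CD33-SNP, the other line with 2 libraries, 1 gene was called, lower in INPP5D-SNP (0.00673%), and 404 had an unadjusted p below 0.05. TXNRD2 had a log2 difference of -2.03 (limma, adjusted p = 0.1511) and TFE3 one of 0.71 (0.0698). The count of calls became 0 without CD33-SNP library 1, 4 without CD33-SNP library 2 and 18 without INPP5D-SNP library 1.

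Against the equally weighted mean of the 5 other edited lines, 132 genes were called (0.889%), 127 higher and 5 lower. The lower ones included TXNRD2, LLPH and HSPA1A. The higher ones included genes of contractile and matrix-producing cells: ACTA2, a smooth muscle actin, had a log2 difference of 3.25 (standard error 0.66, limma, adjusted p = 0.006768), LOX, a collagen crosslinking enzyme, 4.07 (0.003127), and TAGLN, an actin-binding protein, 4.35 (0.01064). Of the 127 genes, 119 had a WT mean above the highest mean of the 5 other lines, and 1, TFE3, was also called against WT. The count rested on INPP5D-SNP library 2: it was 2 without that library and 79 without library 1.

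Stromal markers moved with this result. A score of the endothelial and stromal markers was 3.88 and 5.34 in the edited libraries, 1.09 to 5.69 in WT, and had means of 1.60 to 2.12 in the 5 other lines. With that score as a covariate, none of the 127 higher genes was still called, and 1 gene was called in all. The differences themselves moved unequally. Those of ACTA2, LOX and TAGLN became 0.97, 1.04 and 0.65 on the log2 scale. ACTA2 and TAGLN are among 4 of the 127 genes that are themselves in the score, so part of their decrease was built in. LOX is not in the score. TFE3 went from 0.55 to 0.48, XIAP, an inhibitor of apoptosis, from 0.48 to 0.46, and CAT, catalase, from 1.47 to 1.34. These lost their calls at nearly the same difference. CAT averaged 67.1 TPM in INPP5D-SNP and 62.6 TPM in WT, with a log2 difference from WT of 0.10. Among the other lines it averaged 1.39 TPM in SORL1-KO, 29.2 TPM in TREM2-KO and 42.1 TPM in TREM2-R47H. CD33-SNP and SORL1-A528T averaged 60.1 and 63.5 TPM of CAT, near INPP5D-SNP. On the lower side TXNRD2 went from -2.49 to -2.14 and LLPH from -0.998 to -0.89, and both missed the threshold too (limma, adjusted p = 0.06811 and 0.2645). TAGLN was 26.3 and 177 TPM in the edited libraries and ranged from 1.03 to 71.4 TPM in WT, so library 2 was above every WT library and library 1 was not.

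The range rule gave a broader picture than the 5 calls. Both edited libraries lay above the WT range for 649 of 10602 genes (6.12%) and below it for 1566 (14.8%). For CD33-SNP, under the same rule and against the same WT libraries, 179 of 10464 genes lay above (1.71%) and 595 below (5.69%). Most margins were small: for the median gene above the range the lower edited library was 1.06 times the highest WT library, and for the median gene below it the lowest WT library was 1.07 times the higher edited one. A margin of 1.2 times or more was reached by 77 genes above and 234 below. At the upper edge, MOSPD3 lay just outside, with 21.54 and 21.79 TPM against a highest WT value of 21.53 TPM, and CTSC just inside, with 627 and 594.9 TPM against 595.0 TPM. At the lower edge, PSMD1 lay just outside, with 62.61 and 56.6 TPM against a lowest WT value of 62.62 TPM, and STRAP just inside, with 66.0 and 72.09 TPM against 72.07 TPM. The split depended on scaling, since with quantile normalization 869 genes lay above and 1292 below, or 40.2% above against 29.3% as deposited. It depended on library 4 of WT as well: without it 1070 lay above and 2143 below.

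**Figure D3:**
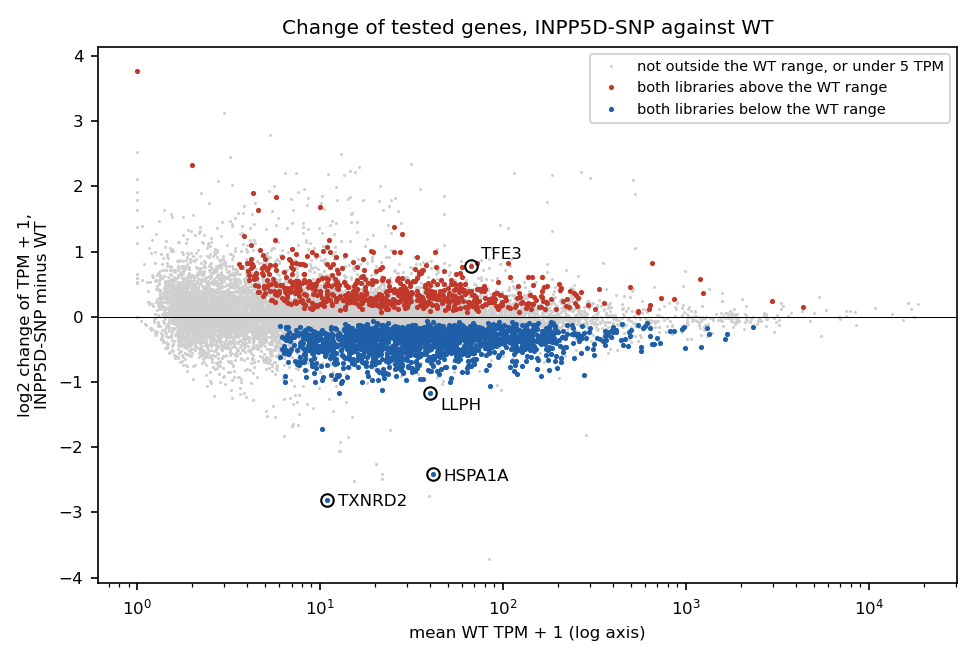
Log2 change of INPP5D-SNP from WT, on the TPM + 1 scale, against the mean WT TPM + 1 on a logarithmic axis, for the tested genes. Genes outside the WT range are red where higher and blue where lower, grey points are the rest, and TXNRD2, HSPA1A, LLPH and TFE3 are circled. TXNRD2, at -2.81, and HSPA1A, at -2.42, are the lowest of those circled.

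In a fit of the 9 libraries alone, 12774 genes were tested, 125 were higher (0.979%) and 507 lower (3.97%), and 610 of these 632 lay outside the WT range. This fit takes its spread from the 9 libraries only. It is used below for lists of genes, which are set beside these shares and beside the shares outside the range, with no test of a list. The lists were chosen with results of these data known, and no list gene other than the 5 above was called in the fit of all libraries.

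The cell cycle list lay towards the lower side. Of 25 cell cycle genes, 16 lay below the WT range (64.0%, beside 14.8% of all genes) and none above, with a median log2 change of -0.31. In the 9-library fit 11 were lower, beside 3.97% of all genes. MCM2, a subunit of the replicative helicase, had 25.7 and 25.9 TPM against 39.3 to 60.6 TPM in WT. MCM5 and MCM7, of the same helicase, had 126 and 117 TPM against 138 to 204 TPM, and 69.1 and 74.2 TPM against 86.0 to 125 TPM. RRM2, which makes deoxyribonucleotides, had 76.3 and 72.4 TPM against 105 to 147 TPM. Genes of mitosis were divided: CDK1, AURKB, BUB1B and BIRC5 lay below, whereas CCNB1, AURKA, CENPF, BUB1 and CCNB2 lay within the range, as did the topoisomerase TOP2A with 85.9 and 87.3 TPM against 76.4 to 94.8 TPM. RRM2, TOP2A and these mitotic genes were named after their values were seen.

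Immediate early and heat shock genes had 8 of 19 below (42.1%, beside 14.8% of all genes) and none above, with a median of -0.22. The 8 include HSPA1A, called above. MYC, a growth-promoting transcription factor, had 40.7 and 41.8 TPM against 51.3 to 71.0 TPM. JUND, a subunit of AP-1, had 186 and 178 TPM against 208 to 266 TPM. In both cases the 2 edited libraries were close together and below every WT library.

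Of the lists examined, genes that build ribosomes had the highest share below the WT range. This list was drawn up after the data were seen and includes LLPH, called above, so its counts carry no independent weight. Of 35 genes at 5 TPM, 31 lay below the WT range (88.6%, beside 14.8% of all genes) and none above. The median change was -0.66, and 27 were lower in the 9-library fit, beside 3.97% of all genes. FBL, the methyltransferase of small nucleolar ribonucleoproteins, had 111 and 145 TPM against 166 to 294 TPM in WT. NOP2, a methyltransferase of large-subunit RNA, had 41.3 and 42.0 TPM against 53.2 to 74.5 TPM, and NCL, nucleolin, had 342 and 361 TPM against 395 to 539 TPM. CD33-SNP library 1 had comparably low values (FBL 116, NOP2 44.2, NCL 364 TPM) and library 2 lay within the WT range (FBL 215, NOP2 56.3, NCL 476 TPM).

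The start windows of FBL and NOP2 are shown because each holds the E-box CACGTG, in capitals, a sequence bound by MYC and by TFE3 and its relatives. They cover chr19:39846330-39846629 and chr12:6568242-6568541, both on the minus strand (RefSeq, GRCh38.p14).
FBL: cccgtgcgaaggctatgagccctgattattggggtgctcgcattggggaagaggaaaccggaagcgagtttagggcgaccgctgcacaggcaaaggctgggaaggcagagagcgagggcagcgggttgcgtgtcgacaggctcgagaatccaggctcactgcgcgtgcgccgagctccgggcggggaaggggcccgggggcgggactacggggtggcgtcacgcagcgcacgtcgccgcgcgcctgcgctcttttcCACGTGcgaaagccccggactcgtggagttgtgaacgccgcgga
NOP2: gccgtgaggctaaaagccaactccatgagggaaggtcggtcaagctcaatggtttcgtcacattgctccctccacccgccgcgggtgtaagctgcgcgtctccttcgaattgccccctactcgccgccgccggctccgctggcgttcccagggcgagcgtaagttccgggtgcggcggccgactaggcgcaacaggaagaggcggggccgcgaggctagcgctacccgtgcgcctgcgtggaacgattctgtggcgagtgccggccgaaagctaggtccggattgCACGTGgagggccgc

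CACGTG is its own reverse complement, as is GAANNTTC, so both strands are covered by one search. CACGTG was found in 11 of the 26 ribosome biogenesis genes below the range that had a window (42.3%), in 7.43% of all 27305 windows and in 10.6% of the 8335 windows of genes at 5 TPM. GAANNTTC was found in 3 of 7 immediate early and heat shock genes below the range, namely HSPA1A, HSPA1B and HSPA8 (42.9%), in 6.87% of all windows and in 4.52% of those of genes at 5 TPM. The TFE3 and LLPH windows held neither. These are matches of letters and no measure of binding. List members within the WT range were not counted as a set, so the shares cannot be tied to lying below the range.

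Lysosomal genes lay towards the upper side. Of 31, 8 lay above the WT range (25.8%, beside 6.12% of all genes) and none below, with a median of 0.26. In the 9-library fit 5 were higher, beside 0.979% of all genes. HEXA, a subunit of beta-hexosaminidase, had 214 and 216 TPM against 156 to 171 TPM. The list median was 0.115 against CD33-SNP and 0.187 against the mean of the 5 other edited lines. NEU1, the lysosomal sialidase, had 112 and 101 TPM against 73.6 to 92.9 TPM. NEU1 was also high in other lines, with 94.65 and 104 TPM in CD33-SNP and means of 97.8 TPM in SORL1-A528T and 94.3 TPM in SORL1-KO. TREM2-KO and TREM2-R47H averaged 83.25 and 84.8 TPM, within the WT range. GRN, progranulin, had 931 and 853 TPM against 695 to 795 TPM in WT. LAMP2, a lysosomal membrane protein, had 151 and 153 TPM against 116 to 134 TPM. Without library 4 of WT, 13 of 31 lay above, beside 10.1% of all genes. Autophagy genes had 6 of 24 above (25.0%, beside 6.12% of all genes with all WT libraries) and 1 below (median 0.09). Among 17 TFE3-family and nutrient-sensing genes, a list drawn up after the data were seen, only TFE3 and RRAGD, a GTPase that tethers these factors to lysosomes, lay above, and TFEB, MITF and TFEC lay within the WT range.

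**Figure D4:**
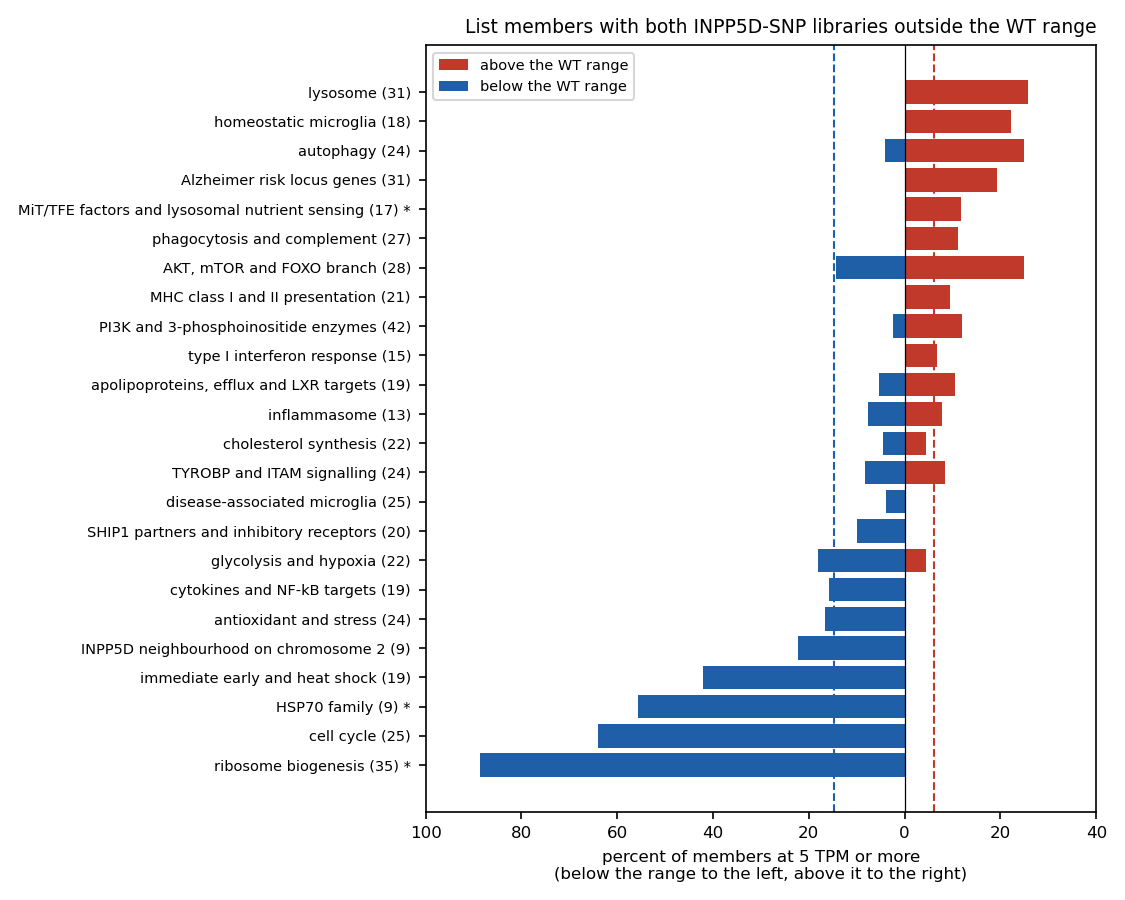
Percent of the members at 5 TPM of each gene list that lay above the WT range (red, to the right) and below it (blue, to the left), with the number of members in brackets and dashed lines at the shares over all genes (6.12% and 14.8%). Asterisks mark lists drawn up after the data were seen. The other lists were chosen with earlier results of these data known. The ribosome biogenesis and cell cycle lists have the largest shares below (31 of 35 and 16 of 25 genes), and the lysosome list has 8 of 31 above and none below.

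Lists of the SHIP1 pathway differed in their shares outside the WT range. Of 20 genes encoding SHIP1 partners and inhibitory receptors, none lay above the WT range and 2 below (10.0%, beside 14.8% of all genes). PTPN6, the related phosphatase SHP1, had 266 and 264 TPM against 282 to 312 TPM. DOK1, an adaptor that binds SHIP1, had 76.2 and 85.2 TPM against 91.3 to 104 TPM. Without library 4 of WT, 6 lay above and 2 below, beside 10.1% and 20.2% of all genes. Of 42 PI3-kinase and phosphoinositide enzymes, 5 lay above (11.9%, beside 6.12% of all genes) and 1 below (median 0.02). INPP4B, which acts on the lipid that SHIP1 produces, had 12.6 and 10.8 TPM against 6.41 to 8.92 TPM. FIG4 and PIK3C3, which act on endosomal phosphoinositides, and PLCG2, a phospholipase used by TREM2, lay above too, PLCG2 with 55.4 and 50.8 TPM against 40.8 to 49.2 TPM.

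In the AKT, mTOR and FOXO list, 7 of 28 lay above (25.0%, beside 6.12% of all genes). The 4 below (14.3%) were near the share of all genes (14.8%). The list had a median of 0.17, and 3 were higher in the 9-library fit, beside 0.979% of all genes. CCNG2, a cyclin induced by FOXO factors, had 57.5 and 66.2 TPM against 25.5 to 40.7 TPM. SESN2, a stress-induced inhibitor of mTOR, had 30.2 and 25.7 TPM against 17.2 to 21.6 TPM. FOXO3, FOXO4, TXNIP, CDKN1B and BCL2L11 were the others above. AKT1 and AKT2, the kinases themselves, lay slightly below: AKT1 had 88.5 and 84.7 TPM against 90.6 to 104 TPM. For CCNG2, CD33-SNP library 1 had 57.7 and library 2 had 35.6 TPM, the second within the WT range.

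Among microglial genes, 4 of 18 homeostatic genes lay above (22.2%, beside 6.12% of all genes) and none below (median 0.28). GPR34, a lysophospholipid receptor of microglia, had 285 and 350 TPM against 225 to 270 TPM. VSIR, an inhibitory receptor, had 304 and 308 TPM against 198 to 263 TPM. Phagocytosis and complement genes had 3 of 27 above and none below, although their median was 0.43: C3, the central complement protein, had 1681 and 1818 TPM against 911 to 1612 TPM. Without library 4 of WT these became 8 of 18 and 13 of 27 above, beside 10.1% of all genes. Disease-associated microglial genes had none of 25 above and 1 below, and TREM2 itself had 596 and 506 TPM against 294 to 585 TPM, within the range for library 2 only.

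Of 31 genes at Alzheimer risk loci, 6 lay above (PLCG2, GRN, PICALM, MS4A4A, BLNK and ABCA7) and none below. The share above was 19.4%, beside 6.12% of all genes above and 14.8% below. PICALM, a clathrin adaptor, had 321 and 307 TPM against 227 to 272 TPM. APOE, which carries lipid between brain cells, had 3054 and 2252 TPM against 1744 to 4615 TPM in WT, within the range. Some lists had shares near those of all genes. Among 19 cytokine and NF-kB genes, NFKB1, TNF and CSF1 lay below (15.8%, beside 14.8% of all genes). Among 15 interferon genes STAT2 lay above (6.67%, beside 6.12%). Among 24 antioxidant genes, SOD1, TXN, NQO1 and PRDX2 lay below (16.7%) and none above, TXN, thioredoxin, with 141 and 125 TPM against 172 to 197 TPM. Of 22 glycolysis and hypoxia genes, HK2, ENO1 and GPI were among 4 below (18.2%), and BNIP3L, a mitophagy receptor, lay above with 73.6 and 67.7 TPM against 34.3 to 60.7 TPM. The antioxidant median was -0.02 and turned to 0.03 with quantile normalization. Of 24 TYROBP and ITAM signalling genes 2 lay above and 2 below (8.33% each), and of 19 apolipoprotein and lipid efflux genes 2 lay above (10.5%) and 1 below. Of 21 antigen presentation genes 2 lay above, CTSS and HLA-E (9.52%), and none below. Cholesterol synthesis had 1 of 22 on each side and the inflammasome list 1 of 13. With counts this small, the shares above are set beside the 6.12% of all genes as a description. Of 9 HSP70 family genes, a list drawn up after the data were seen, 5 lay below (55.6%, beside 14.8% of all genes) and none above. HSPA1A, called above, is among the 5.

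**Figure D5:**
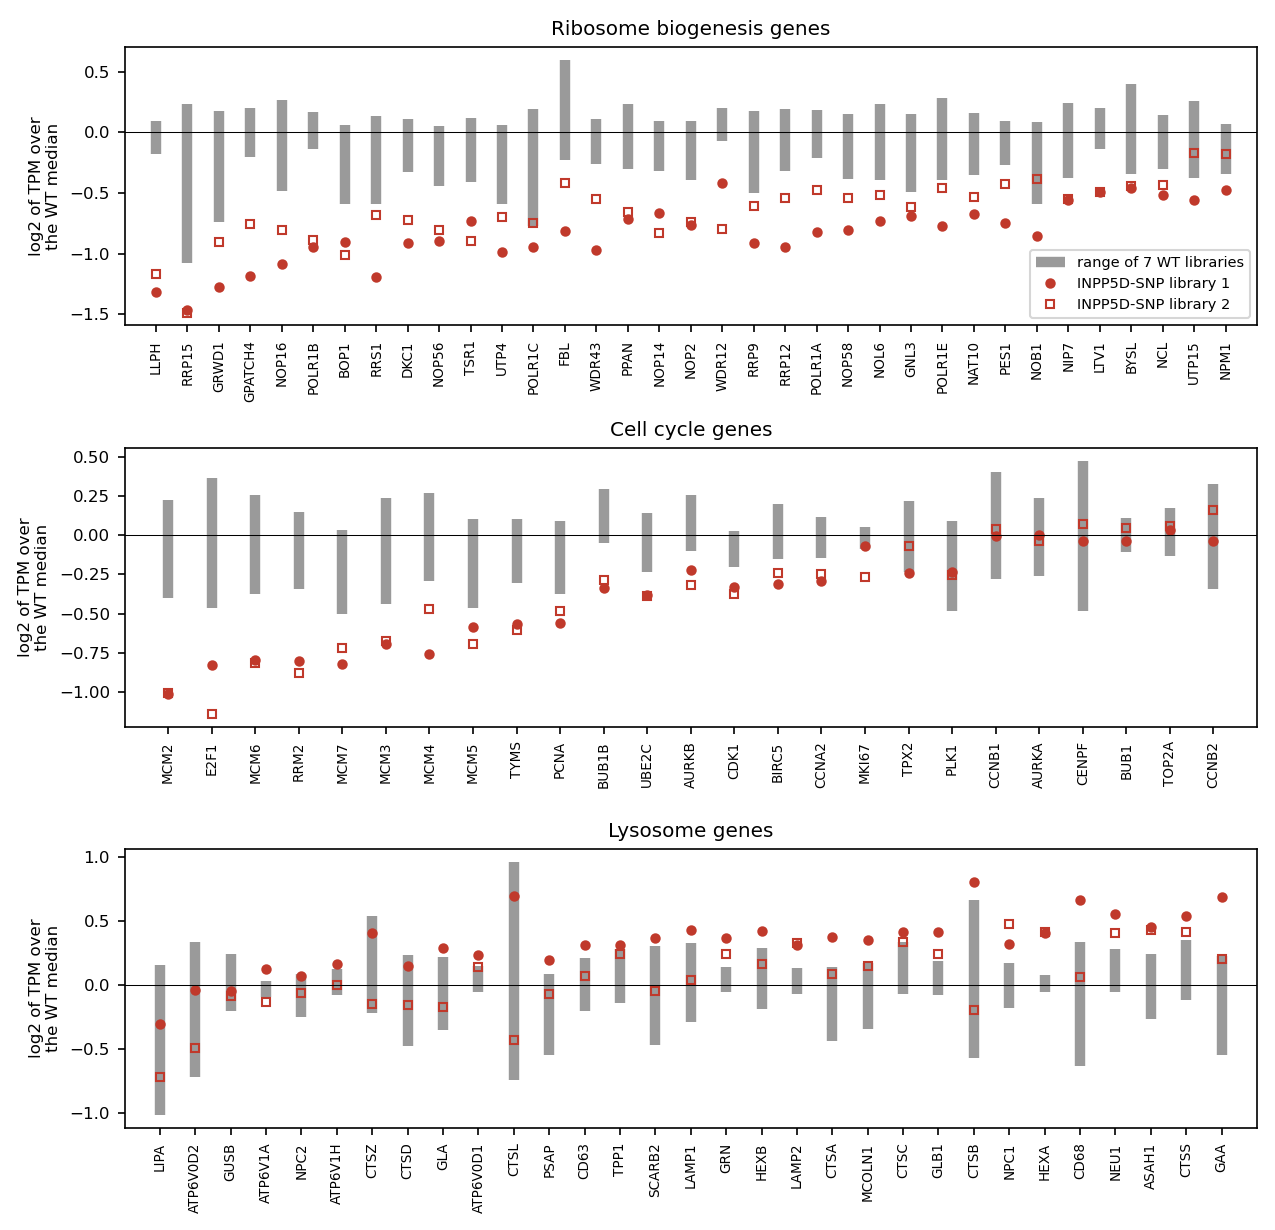
Log2 of TPM over the WT median for the members of 3 gene lists. Grey bars span the 7 WT libraries and red symbols are the 2 INPP5D-SNP libraries. Both symbols lie below the bar for 31 ribosome biogenesis and 16 cell cycle genes, and above it for 8 lysosomal genes.

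Among genes outside the WT range that were not called, the 10 largest differences upward included the following. FPR1, a formyl peptide receptor of phagocytes, had 24.1 and 8.23 TPM against 1.35 to 5.92 TPM in WT (log2 difference 1.90, limma, adjusted p = 0.606). FOLR2, a folate receptor of tissue macrophages, had 32.8 and 23.1 TPM against 4.13 to 22.3 TPM, the highest WT value being library 4. The part of the monocyte and macrophage markers that vary between libraries in these differences was not tested. SELENOP, a selenium transport protein, had 72.6 and 53.2 TPM against 16.7 to 39.8 TPM. SNORD15B, a small nucleolar RNA, was listed at 0 in every WT library and in CD33-SNP library 2, at 33.6 TPM in CD33-SNP library 1, and at 13.1 and 12.05 TPM in the edited ones.

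On the lower side, RRP15, a ribosome biogenesis factor, had 4.56 and 4.49 TPM against 5.97 to 14.8 TPM. FYN, a SRC-family kinase, had 25.0 and 21.9 TPM against 29.9 to 72.9 TPM, and ASB2, a ubiquitin ligase subunit, 33.6 and 45.2 TPM against 51.2 to 109 TPM. BATF3, a transcription factor of dendritic cells, had 2.95 and 4.41 TPM against 4.61 to 11.2 TPM. For these genes the edited libraries lay below every WT library, and none was called. Large differences also occurred where the groups overlapped, as for CD207, langerin, with 32.4 and 131.6 TPM against 45.5 to 427.6 TPM (log2 difference -1.82, limma, adjusted p = 0.606), named after its values were seen.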

How the data were processed

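RNA was measured by paired-end directional sequencing (150 bp; mean 45.13 M reads per library, 39.2 to 64.6 M, per the labels' protocols). The authors deposited 1 table of TPM per gene for 60504 genes; per the submitters' processing notes, cutadapt 1.18, STAR 2.7, RSEM 1.3.1 and DESeq2 were used. For the build, annotation and strand setting, the labels and notes give nothing: not given in the sources used here. TPM sums to the same total in each library and keeps no depth, so no counting interval could be given. Positions were taken from GENCODE 29 (GRCh38) by gene identifier and promoter windows from RefSeq.

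Values were analysed as log2(TPM + 1), which understates the change of low genes. Genes at 1 TPM or more in at least 7 libraries (14855) entered a limma 3.58.1 fit (R 4.3.3) with 7 group means over 40 libraries, with trended, robust moderation and Benjamini-Hochberg adjustment, called at 0.05. The shared spread of all groups was used because INPP5D-SNP has 2 libraries. The procedure was tested on simulated data. The members and lists were chosen with earlier results of these data known. Genes were named by a rule: INPP5D and APOE, called genes outside the WT range, the 10 largest uncalled differences each way outside the range, and up to 4 members of each list outside the range; other genes, namely GRN, LAMP2, MYC, AKT1, FBL, NOP2, NCL, RRAGD, HSPA8, ABCA7, the FOXO genes, CDKN1B, BCL2L11, ACTA2, LOX, TAGLN, XIAP, CAT, TREM2, TMEM119, TFEB, MITF, TFEC, RRM2, TOP2A, the mitotic genes, CD207, the neighbours of TFE3 and those at the edge of the range, were chosen after their values were seen. Of the 2215 members, 648 of 649 above the range and all 1566 below it passed the filter on low values. For the stromal score, log2(TPM + 1) values were averaged over the endothelial and stromal list. Alternatives covered pseudocount, filter, scaling, weights, replicate number as a block, libraries left out and a stromal covariate. The replicate numbers 1 and 2 are shared with WT, but the labels do not say that they pair libraries. Some genes, 1 of those called against WT among them, are not reported or plotted here.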

Additional observations from a re-analysis of the deposited data

Results flagged for a closer look

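In 13 of 87 named genes, 1 WT library stood apart from the other 6 by Dixon's criterion at 95%, which chance meets in about 1 in 20 groups. These genes are not independent, since 9 of the 13 involve WT library 4.

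WT library 4 was the highest for FOLR2 (22.3 TPM), LINC02975 (5.87), KLF6 (41.0), CTSS (617), GABARAPL1 (77.6) and NEU1 (92.9), and the lowest for RRP15 (5.97), MCM5 (138) and MCM7 (86.0). For all but KLF6 this put it on the side of the INPP5D-SNP libraries. WT library 7 was the lowest for HLA-E (154 TPM) and the highest for HSPA1B (47.1 TPM). WT library 1 was the highest for ENSG00000280320 (5.17 TPM) and WT library 6 for ENSG00000260537 (11.9 TPM).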

How the results depend on the processing

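The 5 calls against WT became 8 with a pseudocount of 5 TPM, 373 without a filter, 31 with array weights, 632 (125 higher) in the 2 groups alone, 1567 with replicate number as a block and 27 (23 higher) with that block in the 2 groups alone. Leaving out 1 library gave 4 to 23, the highest without WT library 4. The replicate numbers were not taken as pairing: same-numbered deviations correlated at 0.10 and 0.02. Differently numbered libraries deviated together more: INPP5D-SNP library 1 with WT library 4 (0.28), and library 2 with WT libraries 5 (0.28) and 6 (0.34). With 2 libraries in a group the deviations mirror each other, so the other INPP5D-SNP library has each value with the opposite sign. The 1 call against CD33-SNP became 2 with a pseudocount of 0.1 TPM, median-ratio scaling, quantile normalization, array weights or plain moderation, 14 with 5 TPM, 494 without a filter, 11 with the replicate block, and 0 to 18 with 1 library left out (0 without CD33-SNP library 1, 18 without INPP5D-SNP library 1). The 132 calls against the other edited lines became 42 with 0.1 TPM, 862 without a filter, 37 with a filter of 5 TPM, 1160 with the replicate block, 238 with array weights, 1 with the stromal covariate, and 2 to 79 without 1 of the INPP5D-SNP libraries (2 without library 2). The 2215 genes outside the range became 311 at a margin of 1.2 times and 2297 to 3213 with 1 WT library left out (3213 without WT library 4, which list counts were also recomputed without, an alternative added after seeing the data). The cause of these shifts was not tested.

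The APOE difference of 0.05 turned to -0.13 with the replicate block, -0.10 with that block in the 2 groups alone and -0.034 with WT libraries 5 and 6 averaged, and ran from -0.17 to 0.27 with 1 library left out. TFE3 (0.77, adjusted p = 0.0624 by limma) and HSPA1A (-2.58, 0.214) lost their calls with the replicate block in the 2 groups alone. Without INPP5D-SNP library 1, LLPH (-1.10, 0.0900) and TXNRD2 (-2.46, 0.0570) lost theirs too, and HSPA1A did with the stromal covariate (-2.09, 0.0648). For the 85 named genes other than INPP5D and APOE, 1948 values under alternatives held 72 that newly passed the threshold, 7 that lost it and 0 that turned. TPM keeps no read counts, so what depth limits could not be set.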
